A study of Mus musculus with 4 samples.

Results

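The comparison described here is treadmill exercise in the hearts of tumor-bearing mice: the library of the exercised, tumor-bearing heart, E(+)T(+), against the library of the sedentary, tumor-bearing heart, E(-)T(+). These are 2 of the 4 heart libraries of the series, with 1 library per group. All mice were male CDF1 mice, the first-generation hybrid of the BALB/c and DBA/2 strains, and the labels give a postnatal age of 28 days. The study's methods give this age for the purchase of the mice and place the sacrifice at the end of the experiment. The hearts therefore came from older animals than the labels state. T(+) mice received CT26 cells, a mouse colorectal carcinoma line, through the tail vein, and E(+) mice ran on a treadmill at high intensity on alternate days until they were sacrificed. The other 2 libraries, E(-)T(-) from a sedentary tumor-free heart and E(+)T(-) from an exercised tumor-free heart, are given beside the comparison as levels only. The study's methods describe a representative animal of each group for its muscle libraries but do not state this of the heart, nor at what hour or how long after the last run the hearts were taken. RNA was measured by 3′ tag sequencing, in which each transcript gives 1 fragment near its poly(A) end, so that read counts do not grow with transcript length.

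Of 23282 genes listed, 12065 reached 16 normalized reads in at least 1 of the 2 tumor-bearing libraries and were kept. A gene is said to have risen or fallen when its deposited log2 value differed by at least 1, a 2-fold difference. With 1 library on each side there is no replicate spread and no test, so every value describes these libraries and not the conditions. The only error that can be given is counting error, as a 95% interval of the log2 ratio of the reads, called the counting interval below. Just inside the minimum lay Cchcr1 and just outside it Engase, both with a highest level of 16 normalized reads and with log2 differences of -0.27 and -1.37.

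In tumor-bearing animals the heart can lose mass, and its muscle cells, the cardiomyocytes, share the tissue with fibroblasts, endothelial cells and macrophages. Exercise is known to change the heart's fuel use, its electrical remodelling and its load, and tumors and the inflammation around them change blood cell production. Because the libraries were made from whole tissue, fewer cells of a type and less RNA per cell cannot be told apart in any of the results.

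The exercised heart differed from the sedentary heart at both ends of the scale in nearly equal numbers. Of the 12065 kept genes, 778 rose (6.45%) and 849 fell (7.04%), and the median log2 difference was -0.012, with quartiles of -0.38 and 0.34. At least 4-fold differences were found for 172 genes that rose and 141 that fell, and at least 8-fold differences for 61 and 29. The counting interval excluded equal levels for 1586 of the 1627 genes that rose or fell. The split depends on the scaling: with reads scaled to the library totals instead, 260 genes rose and 2897 fell, since the median of all kept genes then moved to -0.61, and values are therefore best read against the median of all genes. Many genes stood near the threshold, 337 with an absolute log2 difference between 0.9 and 1 and 275 between 1 and 1.1.

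**Figure D1:**
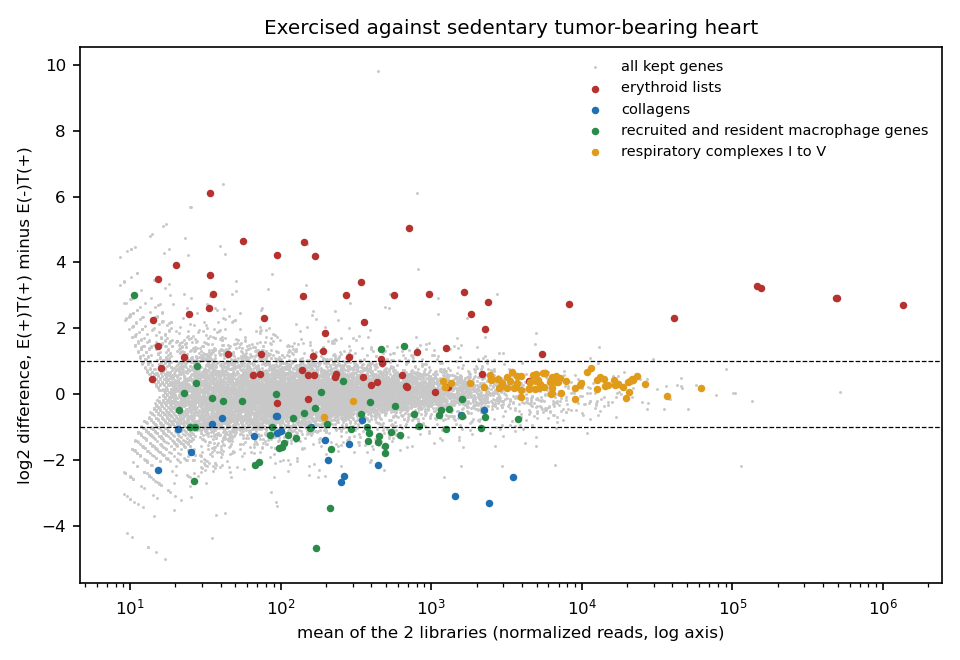
Each grey point is 1 of the 12065 kept genes, with the mean of the 2 tumor-bearing libraries in normalized reads on a log x axis and the log2 difference of E(+)T(+) minus E(-)T(+) on the y axis; the dashed lines mark 2-fold. Erythroid genes (red) lie mostly above the upper line, most collagens (blue) and many macrophage genes (green) below the lower line, and the genes of the respiratory complexes (orange) between the lines.

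The 4 libraries held 6595484 to 11545816 reads, 9533038 in E(-)T(+) and 11545816 in E(+)T(+). Globin transcripts made up 7.86% to 8.76% of the reads in the other 3 libraries and 37.3% in E(+)T(+), which therefore stands apart. Outside the globins, E(+)T(+) held 7242012 reads and E(-)T(+) 8784177, so genes of low level were measured with somewhat fewer reads in the exercised heart. All 20 heart muscle markers were kept, from myoglobin to the cardiac troponins, as the labelled tissue should give. Some genes that every cell uses, such as the enolase gene Eno1, are listed at 0 in all 4 libraries, so a value of 0 is reported as listed and is no proof of absence.

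**Figure D2:**
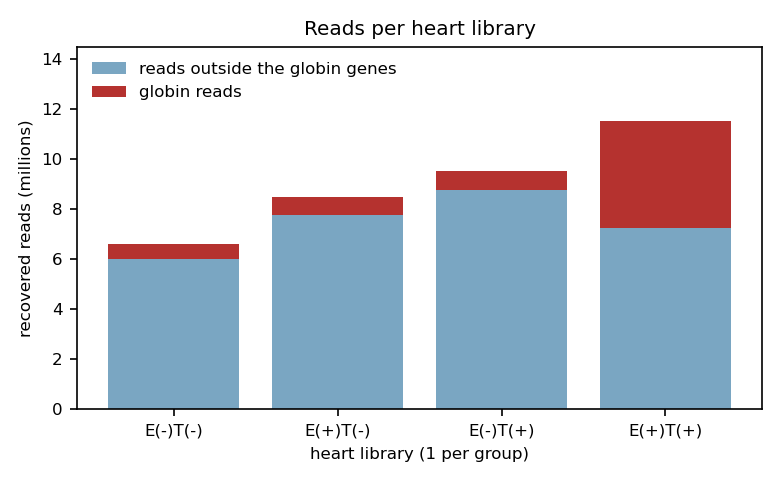
Bars give the recovered reads of each heart library on the y axis, split into reads of globin genes (red) and all other reads (blue), with 1 library per group. Globin reads were 37.3% of E(+)T(+) and between 7.86% and 8.76% of the other libraries.

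The most abundant difference was in transcripts of the red cell lineage, which make hemoglobin and remodel the cell membrane before the nucleus is lost. All 8 kept globin genes rose, with a median log2 difference of 2.93. Hba-a1, an adult alpha globin gene, stood at 366384, 348306 and 360839 normalized reads in E(-)T(-), E(+)T(-) and E(-)T(+) and at 2349625 in E(+)T(+), and the first 3 libraries differed little from each other. The beta globin symbols Hbb-b1 and Hbb-bs, and Hbb-b2 and Hbb-bt, overlap and carry nearly equal values. The same reads may therefore be counted under both symbols of a pair. The count of globin genes, the globin shares and the library totals given above include all of these symbols and may hold such reads more than once. Hbq1b, a theta globin gene, rose from 10.4 to 276 normalized reads.

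The enzymes and carriers that make heme moved with the globins: 8 of 14 kept members rose, none fell, and the median log2 difference was 1.1. Alas2, the erythroid first enzyme of the pathway, stood at 1789, 1599 and 2135 normalized reads in E(-)T(-), E(+)T(-) and E(-)T(+) and at 14331 in E(+)T(+), a log2 difference of 2.75 (counting interval 2.68 to 2.81). The mitochondrial iron importer Slc25a37 had a log2 difference of 2.79, and Fech, which inserts the iron into the ring, 1.99. Cpox, Uros and Alad rose by 1.15, 1.13 and 1.07. Scaled to the library totals, 3 of the 14 rose. The pathway's members spread widely, the largest differences belonging to Alas2 and the iron importer and the smallest, 0.21, to a member below the threshold.

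Among 16 kept genes of the red cell membrane and its cytoskeleton, 11 rose and none fell. Blood group and antigen genes were among them: Kel rose from 1.61 to 38.7 normalized reads (counting interval of the log2 ratio 2.52 to 7.58, from a few reads in E(-)T(+)), Rhag from 1.63 to 29.0 (counting interval 2.07 to 7.18) and Ermap from 8.69 to 58.4. Tfrc, the transferrin receptor through which red cell precursors take up iron, rose by 1.87 on the log2 scale. Tfrc stood lower in E(-)T(+) (83.6 normalized reads) than in the 2 tumor-free libraries (448 and 566), with E(+)T(+) at 309 between them.

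Factors that act in nucleated precursors were present too. Gata1, the master regulator of the lineage, stood at 0.176, 4.38 and 6.90 normalized reads in E(-)T(-), E(+)T(-) and E(-)T(+) and at 63.9 in E(+)T(+), and Klf1, which switches on the adult beta globin gene, rose from 6.95 to 42.1. Tspo2, an erythroid membrane protein gene, was listed at 0 in E(-)T(+) and stood at 68.1 in E(+)T(+), at least 4.70 higher on the log2 scale when 3 reads are taken as the floor. Of 10 kept genes of this list, which holds Tspo2 and so not only factors, 5 rose: Gata1, Klf1, Hemgn, Tspo2 and Trim10. The factor genes Tal1, Lmo2, Zfpm1, Bcl11a and Nfe2 lay under 2-fold, with log2 differences of 0.46 to 0.80. Enzymes that accumulate in maturing red cells rose in 11 of 17 kept cases, among them the carbonic anhydrases Car2 (58.0 to 620 normalized reads) and Car1 (25.5 to 129), Bpgm, which makes 2,3-bisphosphoglycerate, and the ubiquitin enzymes Ube2l6 and Ube2o. Of the early genes in the lists, Myb had 0 and 7 reads and Epor 3 in each library, too few to be kept.

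The bases before the RefSeq transcription start (build GRCm38.p6) were searched on both strands for AGATAA, a form of the site bound by GATA1, and for CCACACCC, the CACCC box bound by KLF1. A 250 base window was in the table for only 28 of the 43 erythroid genes that rose, so a share over the whole group is void; of those 28 genes 7 held AGATAA and 1 held CCACACCC, so most held neither. Over all 27025 genes with a window, 11.4% held AGATAA and 3.68% CCACACCC. The 3 genes shown were picked because they hold at least 1 of the sites and stand for the 3 roles above, heme, globin and membrane; the sites are in capitals (TTATCT is AGATAA read on the other strand). The windows are chrX:150547167-150547416 on the plus strand for Alas2, chr7:103827929-103828178 on the minus strand for Hbb-bs and chr6:41704326-41704575 on the minus strand for Kel, each written 5′ to 3′ in the direction of its gene. A match describes letters only and is not a bound site.
Alas2: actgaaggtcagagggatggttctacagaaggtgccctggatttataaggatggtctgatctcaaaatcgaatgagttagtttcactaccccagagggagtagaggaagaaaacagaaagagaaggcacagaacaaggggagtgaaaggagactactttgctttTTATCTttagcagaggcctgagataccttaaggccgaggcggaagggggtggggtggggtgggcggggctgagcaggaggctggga
Hbb-bs: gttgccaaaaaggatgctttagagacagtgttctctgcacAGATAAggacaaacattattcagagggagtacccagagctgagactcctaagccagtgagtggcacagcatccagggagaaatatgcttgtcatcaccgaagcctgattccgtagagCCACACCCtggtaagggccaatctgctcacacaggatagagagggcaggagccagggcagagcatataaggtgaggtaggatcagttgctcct
Kel: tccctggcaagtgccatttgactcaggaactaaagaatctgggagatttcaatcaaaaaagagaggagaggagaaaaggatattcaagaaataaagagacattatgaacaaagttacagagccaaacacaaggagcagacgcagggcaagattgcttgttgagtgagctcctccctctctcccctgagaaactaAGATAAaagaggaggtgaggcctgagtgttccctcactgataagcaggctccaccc
In these windows Alas2 and Kel each held 1 AGATAA match, and Hbb-bs held 1 AGATAA and 1 CCACACCC match.

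Of 18 kept genes of iron handling and heme breakdown 1 rose and 3 fell. The iron exporter Slc40a1 rose from 45.7 to 115 normalized reads, while the hemoglobin scavenger receptor Cd163 fell from 748 to 337. Haptoglobin, Hp, had 504 normalized reads in E(-)T(+) and 1008 in E(+)T(+), against 54.2 and 56.8 in the tumor-free hearts. The transferrin gene Trf had a log2 difference of -0.87.

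Of 19 kept fetal and stress genes of the cardiomyocyte 4 rose and 5 fell, and several of those that fell had been high in the sedentary tumor-bearing heart. Ankrd1, a nuclear and sarcomeric stretch sensor, stood at 86534, 67705, 185620 and 41160 normalized reads over E(-)T(-), E(+)T(-), E(-)T(+) and E(+)T(+), a log2 difference of -2.17 (counting interval -2.19 to -2.16). E(+)T(+) was thus the lowest of the 4 libraries and E(-)T(+) the highest. Ctgf, a matricellular growth factor induced by stretch and TGF-beta, fell from 10831 to 2448 (tumor-free hearts 1951 and 3136). Nppb, which encodes B-type natriuretic peptide, a marker of ventricular wall stress, fell from 1547 to 553, near the 665 and 845 of the tumor-free hearts. Gdf15, a stress cytokine that acts on appetite, fell from 53.7 to 18.8, both below the 117 and 107 of the tumor-free hearts.

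The related atrial peptide gene went the other way. Nppa stood at 12791, 14223, 7008 and 18832 normalized reads in E(-)T(-), E(+)T(-), E(-)T(+) and E(+)T(+), a rise of 1.43 on the log2 scale. Sarcolipin, Sln, an inhibitor of the calcium pump made mainly in the atrium, stood at 498, 1268, 599 and 4897 in the same order. The atrial myosin light chains Myl4 (735, 1458, 573 and 2873) and Myl7 (746, 1715, 687 and 2273) rose by 2.32 and 1.72. For these 4 genes E(+)T(+) was the highest library, and for Sln, Myl4 and Myl7 E(+)T(-) was the second highest.

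Of 14 kept atrium-enriched genes 6 rose and 2 fell, with a median log2 difference of 0.83. Stard10 and Fgf12 also rose, by 1.26 and 1.25. The atrial transcription factor gene Nr2f1 fell by 1.42 and Itga8 by 1.14 on the log2 scale, while Tbx5 and Kcna5 had log2 differences of 0.91 and 0.76 and Nr2f2 of -0.45. The summed level of the list was 21801, 26296, 16946 and 38311 normalized reads over E(-)T(-), E(+)T(-), E(-)T(+) and E(+)T(+), and the atrial genes Bmp10 and Gja5 had at most 11 reads in either tumor-bearing library. With library totals as the scale 3 members rose, 3 fell and the median was 0.25. How much atrium each heart sample held is not given, and its part in these differences was not tested.

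**Figure D3:**
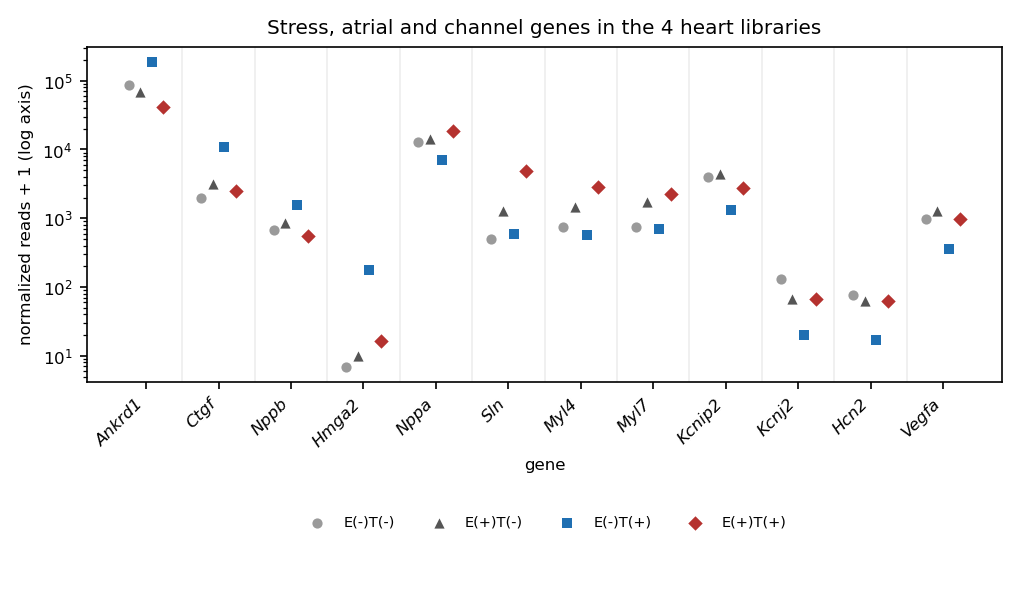
Points give the normalized reads plus 1, on a log axis, of 12 genes in the 4 heart libraries (1 point per library). Ankrd1, Ctgf, Nppb and Hmga2 were highest in E(-)T(+), Nppa, Sln, Myl4 and Myl7 were highest in E(+)T(+), and Kcnip2, Kcnj2, Hcn2 and Vegfa were lowest in E(-)T(+).

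Most genes of the contractile apparatus lay under 2-fold. In the sarcomere and Z-disc list, however, the share that fell was above the 7.04% of all kept genes. None of the 29 kept sarcomere and Z-disc genes rose and 5 fell: besides Ankrd1 these were Synpo2l (952 to 295 normalized reads), Lmod2, a leiomodin that lengthens the thin filament (14961 to 6653), the filamin gene Flnc (781 to 352) and Xirp1 (1073 to 526). These 4 were lower in both tumor-free hearts than in E(-)T(+); for Lmod2, for example, the tumor-free levels were 6173 and 4773. The myosin heavy chains Myh6 and Myh7 had log2 differences of 0.28 and -0.09. Of 20 heart muscle markers only the fatty acid binding protein gene Fabp3 passed 2-fold (19148 to 40007), and Mb, Ckm and Actc1 had log2 differences of 0.77, 0.59 and 0.47.

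Calcium handling genes were close to equal, with 1 of 27 kept members higher (Sln, above) and 1 lower (Fkbp1b, which stabilizes the ryanodine receptor, 77.1 to 37.2 normalized reads). In the intercalated disc, the junction between cardiomyocytes, the desmosomal cadherin gene Dsc2 rose by 1.09, Xirp1 fell and the gap junction gene Gja1 had a log2 difference of -0.71; the other 18 of 21 lay under 2-fold as well.

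Several genes of the action potential were higher in the exercised heart. Of 22 kept voltage-gated channel genes and subunits 6 rose and none fell, with a median log2 difference of 0.65, and 18 of the 22 differences were positive. Kcnip2, a subunit of the transient outward potassium current, stood at 3928, 4344, 1337 and 2756 normalized reads in E(-)T(-), E(+)T(-), E(-)T(+) and E(+)T(+). Kcnj2, of the inward rectifier that holds the resting potential, stood at 129, 66.9, 19.2 and 65.6, and the pacemaker channel gene Hcn2 at 76.6, 61.6, 15.7 and 62.3. Kcne1, Scn4b and Cacna1g rose by 1.34, 1.11 and 1.03, the last with a counting interval from 0.02 to 2.18. For Kcnip2, Kcnj2, Hcn2, Kcne1 and Scn4b E(-)T(+) was the lowest library. With library totals as the scale the list's median was 0.07 and 2 members rose.

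Of 20 kept genes of adrenergic and muscarinic signaling 2 rose. Rgs4, which shortens signals of G protein-coupled receptors, rose from 60.6 to 168 normalized reads (424 and 455 in the tumor-free hearts). Pde4b, a cyclic AMP phosphodiesterase, rose from 971 to 2121, above the 595 and 590 of the tumor-free hearts. The beta 1 receptor gene Adrb1 stood at 152, 187, 50.1 and 72.3 in E(-)T(-), E(+)T(-), E(-)T(+) and E(+)T(+), a log2 difference of 0.52 with a counting interval of -0.01 to 1.06.

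The respiratory chain showed small differences of mostly 1 sign. None of 37 kept complex I genes and none of 43 genes of complexes II to V reached 2-fold, yet 35 of 37 and 39 of 43 had a positive difference, with medians of 0.36 and 0.31 against -0.012 for all genes. Ndufs4, an accessory subunit of complex I, stood at 3845, 3550, 2624 and 4234 normalized reads, and Cox7a1, the heart and muscle form of a complex IV subunit, at 12659, 13920, 8404 and 14511, in the order E(-)T(-), E(+)T(-), E(-)T(+) and E(+)T(+). Sdhd, a membrane anchor of complex II, went the other way at 237 and 148 (log2 difference -0.68). For the mitochondrial ribosome, 66 of 77 genes were positive, with a median of 0.28 and no member past 2-fold. Scaled to the library totals, all 3 medians turned negative (-0.23, -0.27 and -0.30), still above the -0.61 of all genes under that scale, so the sign holds only relative to the other genes.

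Regulators of mitochondrial number gave 3 rises among 25 kept genes: Ppargc1a, the coactivator of mitochondrial biogenesis (932, 858, 488 and 1178 normalized reads over E(-)T(-), E(+)T(-), E(-)T(+) and E(+)T(+)), the mitochondrial deacetylase gene Sirt3 (65.9 to 164) and Perm1, a muscle partner of Ppargc1a (966 to 1942). Ppargc1b and Tfam had log2 differences of 0.79 and 0.58, and with library totals as the scale none of the 25 rose. Among 30 kept carriers of the inner membrane Slc25a39 and Slc25a34 rose by 1.74 and 1.49, Slc25a36 rose from 2.46 to 31.5 normalized reads (counting interval 1.89 to 5.94), and the ATP-magnesium carrier gene Slc25a24 fell by 1.01 on the log2 scale.

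Some fuel genes were higher. Of 19 kept targets of PPAR in fasting 7 rose and none fell, with a median of 0.68. The uncoupling protein gene Ucp3 stood at 50.1, 24.4, 1.57 and 27.3 normalized reads in E(-)T(-), E(+)T(-), E(-)T(+) and E(+)T(+), with a counting interval of 1.95 to 7.08 on the log2 scale. The lipase inhibitor gene Angptl4 stood at 157, 28.8, 4.19 and 41.6, and Pdk4, the kinase that shuts pyruvate out of oxidation, at 161, 77.7, 16.5 and 83.1. For Ucp3, Angptl4 and Pdk4 E(-)T(+) was the lowest library and E(-)T(-) the highest, and the exercised libraries of either tumor status lay between. Plin5, which ties lipid droplets to mitochondria, rose by 1.16 and Ucp2 by 1.27, the latter above both tumor-free hearts (473 to 1142, against 327 and 270). With library totals as the scale 3 members of the list rose, 1 fell and the median was 0.1.

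In fatty acid uptake and oxidation 1 of 29 kept genes rose (Fabp3), and Cpt2, Mlycd, Acsl1 and Crat had log2 differences of 0.95, 0.79, 0.78 and 0.73. In glucose uptake and glycolysis 2 of 29 rose, the phosphofructokinase gene Pfkl (263 to 592 normalized reads) and Pfkfb1, while the glucose transporter gene Slc2a1 had a log2 difference of -0.72. Over all kept genes 6.45% rose, so neither count of rises stood out. The medians of the 2 lists were 0.40 and 0.33, and -0.18 and -0.26 with library totals as the scale. In fatty acid and sterol synthesis no gene of 22 rose and 2 fell, among them the regulator Srebf1 (107 to 51.5).

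Markers of fat cells were among the larger rises. Of 15 kept white adipocyte markers 8 rose and none fell, with a median of 1.40, and 3 had a negative difference. The summed level of the 21 listed markers was 61280, 51364, 76817 and 70626 normalized reads in E(-)T(-), E(+)T(-), E(-)T(+) and E(+)T(+). The sum was thus lower in E(+)T(+) than in E(-)T(+), unlike the median. Adipoq, which encodes adiponectin, stood at 363, 70.4, 66.8 and 389 normalized reads in E(-)T(-), E(+)T(-), E(-)T(+) and E(+)T(+). Cfd, which encodes adipsin, stood at 1228, 339, 348 and 1885, and the lipid droplet coat gene Plin1 at 59.4, 14.3, 0 and 82.8. For Adipoq, Cfd and Plin1 the sedentary tumor-free heart and the exercised tumor-bearing heart were high and the other 2 libraries low. Lep, the leptin gene, had 0 reads in both tumor-bearing libraries, and Fabp4, which endothelial cells also make, had a log2 difference of 0.54.

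Of 15 kept genes of thermogenic fat 4 rose and 1 fell. Ppargc1a and Fabp3 were among the rises, with log2 differences of 1.27 and 1.06. Both are counted above as well, with the mitochondrial regulators and the heart muscle markers, so they are not particular to fat. The uncoupling protein gene of brown fat, Ucp1, was listed at 0 in E(-)T(+) and stood at 889 normalized reads in E(+)T(+). Elovl3, a fatty acid elongase of brown fat, stood at 0 and 50.7, at least 4.28 higher on the log2 scale against a floor of 3 reads. Dio2, which activates thyroid hormone, fell from 317 to 149 (30.1 and 116 in the tumor-free hearts). Cidea and Prdm16 had log2 differences of 0.62 and 0.59, and Zic1 had 0 reads in both libraries. The amount of fat around each heart sample is not given and its part was not tested.

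Genes of protein synthesis and breakdown had small differences, mostly negative. Of 78 kept cytosolic ribosomal protein genes none reached 2-fold, 75 had a negative difference, and the median was -0.33. Rps27a, for example, stood at 2246, 2355, 5366 and 3151 normalized reads and Rpl32 at 3543, 3983, 8503 and 5241 in E(-)T(-), E(+)T(-), E(-)T(+) and E(+)T(+), so both tumor-bearing hearts lay above both tumor-free hearts and the exercised one nearer to them. The summed level of the list was 201556, 213251, 375648 and 301458 in that order. For the proteasome, which degrades ubiquitin-tagged proteins, 32 of 36 genes were negative, with a median of -0.15 and no member past 2-fold.

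Of 19 kept atrophy genes, the ubiquitin ligases and FoxO factors of muscle wasting, none rose and 2 fell. Klf15, a glucocorticoid-induced regulator, fell from 265 to 96.3 normalized reads (117 and 91.2 in the tumor-free hearts), and the translation repressor gene Eif4ebp1 from 2176 to 1041 (1004 and 812). For both genes the exercised tumor-bearing heart stood near the tumor-free hearts. In autophagy, Atg13 rose from 263 to 590 and Bnip3l, a mitophagy receptor gene also used by maturing red cells, from 691 to 1827, while the lysosomal protease gene Ctsl fell from 4959 to 2279. The other 30 of 33 lay under 2-fold.

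In the unfolded protein response 3 of 28 kept genes fell and none rose. The sensor genes Ern1 (42.0 to 6.67 normalized reads) and Eif2ak3 (31.8 to 13.3) and the pseudokinase gene Trib3 (53.2 to 9.99) were all of low level, whereas Ddit3 and Herpud1 had log2 differences of -0.47 and 0.54. Of 28 heat shock chaperones 2 rose: Dnajb1 from 156 to 327, and Hspa1b from 16.5 to 49.4. Hspa1b and Hspa1a are near-identical, so their division is uncertain, and Hspa1a had a log2 difference of 0.94. These inducible chaperones were far higher in E(+)T(-), at 2573 for Hspa1b and 1537 for Dnajb1, than in E(+)T(+).

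Of 21 kept genes of the insulin-like growth factor axis 3 fell and none rose, against 7.04% and 6.45% of all kept genes. Of the 21 differences 15 were negative and 6 positive. The falls were the binding protein genes Igfbp3 (633 to 160 normalized reads) and Igfbp4 (5456 to 2633) and the PI3-kinase inhibitor gene Pik3ip1 (312 to 88.7). Pik3ip1 stood at 289 in E(-)T(-) and 77.6 in E(+)T(-), so both exercised libraries were low and both sedentary ones high. Igf1 had 1096 and 559 and a log2 difference of -0.97 (tumor-free hearts 362 and 444), and the insulin receptor gene Insr had -0.81, both just short of the threshold. In the myostatin and activin pathway 2 of 21 rose, the activin subunit genes Inhbb (32.5 to 95.9) and Inhba (20.1 to 45.9), and 3 fell, the receptor gene Acvr2b (30.1 to 8.88), the antagonist gene Fst (36.5 to 17.5) and Gdf15. Mstn, which encodes myostatin, had 1 and 0 reads.

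Immediate early genes, which answer stimuli within minutes, moved in both directions, with 5 of 27 kept members higher and 2 lower. Fosb stood at 14.0, 14.3, 9.51 and 91.3 normalized reads in E(-)T(-), E(+)T(-), E(-)T(+) and E(+)T(+), and Egr3 at 10.5, 47.2, 6.86 and 41.4. Egr1 rose from 514 to 1319, Nr4a2 from 29.8 to 119 and Maff from 283 to 680. Scaled to the library totals, 3 rose, 5 fell and the median went from 0.45 to -0.13. Klf2, a factor of endothelial flow response, and the antiproliferative gene Btg2 fell, to 1158 and 588. For Egr1, Egr3, Nr4a2 and Maff the exercised library was the higher one in tumor-free hearts as well.

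Most clock genes stood close together: of 23 kept members 2 rose and 1 fell, with a median of -0.09. Per3, a repressor of the clock, stood at 42.2, 11.6, 45.2 and 7.80 normalized reads in E(-)T(-), E(+)T(-), E(-)T(+) and E(+)T(+), low in both exercised libraries. Nfil3, a repressor that cycles against the PAR factors, stood at 146, 370, 171 and 368, high in both. Tef, 1 of those PAR factors, had a log2 difference of -0.72, and the core genes Arntl and Per2 -0.49 and -0.44. Of 22 glucocorticoid targets 3 rose and 2 fell. The cell cycle inhibitor gene Cdkn1a stood at 634, 2118, 2519 and 7311, while Fkbp5 and Tsc22d3, which report the hormone closely, had log2 differences of -0.89 and -0.67.

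Genes of the extracellular matrix, made mainly by fibroblasts, were lower in the exercised heart. All 23 kept collagen genes had a negative difference, with a median of -1.27, and 15 fell. Col1a1, of the main fibrillar collagen, stood at 599, 1231, 2564 and 301 normalized reads in E(-)T(-), E(+)T(-), E(-)T(+) and E(+)T(+), and E(+)T(+) was the lowest library. Col5a1, also of a fibrillar collagen, fell from 721 to 162, the microfibrillar Col6a1 and Col6a2 from 328 to 82.2 and from 445 to 78.9, and Col4a5 of the basement membrane from 39.8 to 11.1. Col15a1, a basement membrane collagen of resting fibroblasts, fell from 286 to 110 and was lower in both tumor-bearing hearts than in the tumor-free ones (562 and 798).

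Enzymes and partners of collagen fell with it. In the list of activated fibroblast genes 14 of 32 kept members fell and 1 rose, among the lower ones Bmp1, which trims procollagen (188 to 36.2 normalized reads), Fkbp10, a collagen chaperone (203 to 52.6), the surface protease gene Fap (48.6 to 7.82) and fibronectin, Fn1 (764 to 220). Of 24 proteoglycan and elastic fibre genes 7 fell and none rose, including Fbn1 (477 to 141), Vcan (744 to 249) and Bgn (4193 to 1756). Among metalloproteinases and their inhibitors 9 of 27 fell and 1 rose; Mmp3, which degrades many matrix proteins, stood at 33.5, 88.4, 1035 and 340 in E(-)T(-), E(+)T(-), E(-)T(+) and E(+)T(+), and Mmp2 at 583, 630, 2436 and 797. For Mmp2, Mmp3, Vcan and Fkbp10, E(-)T(+) was the highest library and the level in E(+)T(+) was nearer the tumor-free hearts; Fbn1, Bgn and Bmp1 went below both of them.

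Fewer markers of the fibroblast itself passed 2-fold. Of 20 resting fibroblast genes 4 fell, among them the receptor gene Pdgfra (562 to 213 normalized reads, tumor-free 232 and 231) and Cxcl14 (1707 to 644), and the median was -0.40. In the basement membrane and integrin list 5 of 27 fell, for example Lamc1 (809 to 348) and the fibronectin receptor gene Itga5 (60.3 to 19.8), and the laminin gene Lamb3 rose from 136 to 315. Col6a5, among the 15 largest falls, went from 169 to 16.6, and Pi15, a peptidase inhibitor gene, from 335 to 59.2. Abca6, Cntn1 and Prkg2, also among the largest falls, were highest in E(-)T(+), where they stood at 303, 154 and 153 against at most 69.0 in any other library.

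**Figure D4:**
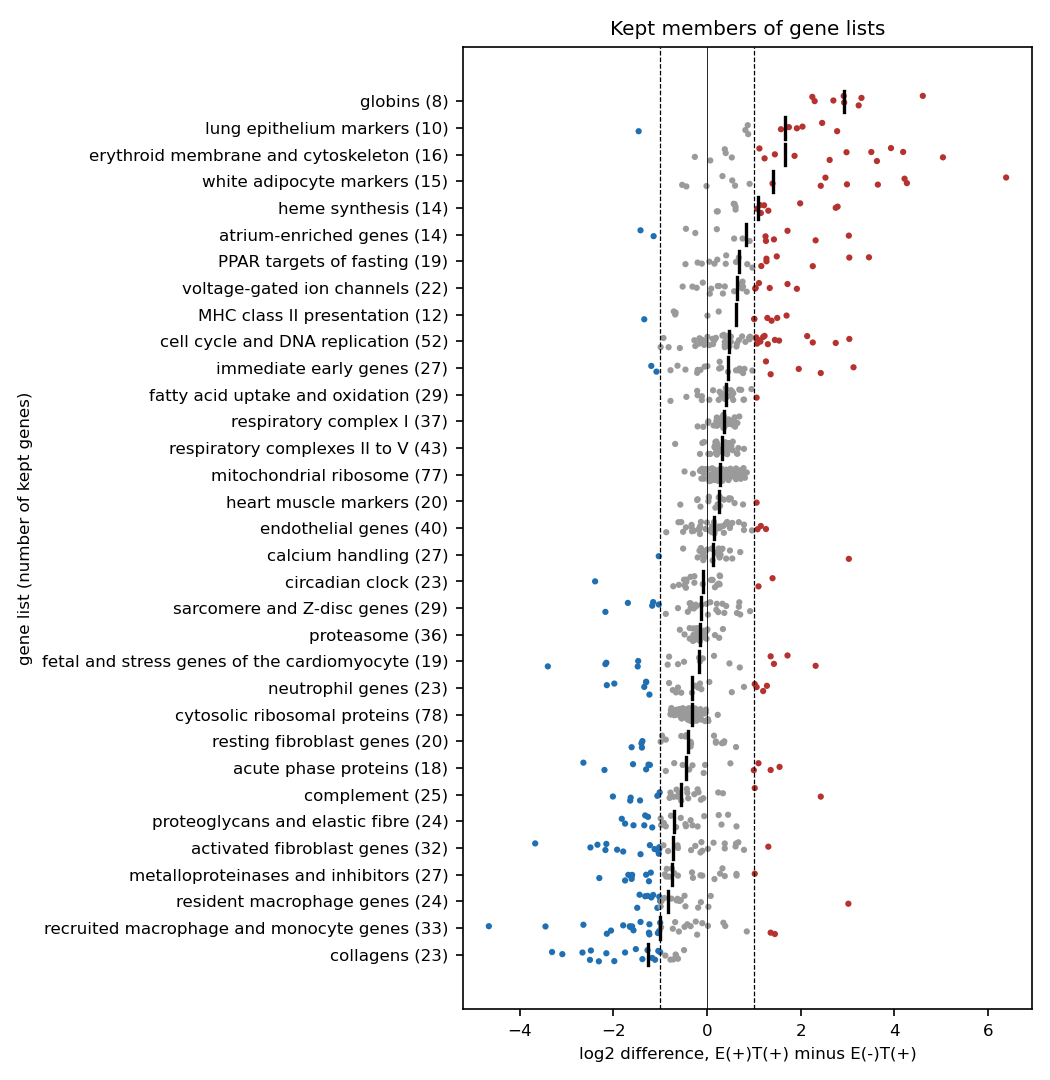
Each point is a kept gene of the list named at the left (number kept in parentheses), placed by its log2 difference of E(+)T(+) minus E(-)T(+); red points rose and blue points fell at least 2-fold (dashed lines), and the black bar is the list's median. Medians run from 2.93 for the globins to -1.27 for the collagens, while the respiratory chain and the ribosomal lists are narrow and lie on opposite sides of 0.

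Macrophage genes fell in both named classes. Of 33 kept genes of recruited macrophages and monocytes 17 fell and 2 rose, with a median of -1.0, and of 24 genes of resident macrophages 9 fell and 1 rose, with a median of -0.83. Cd68, a lysosomal protein gene of all macrophages, stood at 89.6, 86.7, 328 and 104 normalized reads in E(-)T(-), E(+)T(-), E(-)T(+) and E(+)T(+). Trem2 and Gpnmb, of lipid-handling macrophages, fell from 117 to 27.5 and from 110 to 24.2, and the integrin gene Itgam from 149 to 47.1. Among the resident genes, the mannose receptor gene Mrc1 stood at 288, 319, 635 and 263, and C1qc, a chain of complement C1q, at 553, 788, 1686 and 808. For these genes E(-)T(+) was the highest library and E(+)T(+) was nearer to the tumor-free hearts. Wfdc17, also a macrophage gene and among the 15 largest falls, went from 2054 to 362.

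Arg1 and Marco, genes of alternative activation and of scavenging, were nearly absent from the tumor-free hearts and much lower in E(+)T(+) than in E(-)T(+), at 35.2 against 393 and at 12.2 against 333 normalized reads. Fcrls was the exception among resident genes, at 53.7, 83.6, 1.57 and 19.8 in E(-)T(-), E(+)T(-), E(-)T(+) and E(+)T(+), with a counting interval of 1.42 to 6.63 on the log2 scale.

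Neutrophil genes split. Of 23 kept members 4 rose and 6 fell. The granule and calcium-binding protein genes S100a8 (46.1, 34.2, 1332 and 2773 normalized reads over E(-)T(-), E(+)T(-), E(-)T(+) and E(+)T(+)), Ngp (1.38, 1.65, 54.7 and 134) and Retnlg (10.6, 6.16, 174 and 402) rose, and both tumor-bearing hearts stood above the tumor-free ones. The stefin genes Stfa1, Stfa2 and Stfa3, which resemble each other closely, fell to 9.90, 13.2 and 12, and Slpi, an inhibitor of neutrophil elastase, fell from 261 to 103. The granule enzyme genes Mpo and Elane had at most 12 reads in either library and were not kept. The summed level of the list was 423 and 341 in the tumor-free hearts, 5948 in E(-)T(+) and 7567 in E(+)T(+). With library totals as the scale no member rose and 11 of 24 kept members fell, so the rises depend on the scaling. With the reads outside the globins as the scale, 3 of 23 rose and 6 fell.

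Of 18 kept acute phase genes 6 fell and 3 rose. Saa3, a serum amyloid made outside the liver, stood at 8.29, 2.55, 2593 and 567 normalized reads and Serpina3n, a protease inhibitor, at 84.0, 135, 7408 and 2479 in E(-)T(-), E(+)T(-), E(-)T(+) and E(+)T(+). Lbp, the lipopolysaccharide binding protein gene, fell from 464 to 199, and Lcn2, which encodes an iron-trapping lipocalin, from 992 to 401. For Saa3, Serpina3n, Lbp and Lcn2 E(+)T(+) remained above both tumor-free hearts. Cd14, the partner of Lbp on the cell surface, and Orm1, an orosomucoid gene, instead rose, from 259 to 668 and from 10.5 to 32.6.

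Of 30 kept chemokine ligands and receptors 5 rose and 7 fell. Cxcl2, known for drawing neutrophils, stood at 4.85, 0, 11.2 and 289 normalized reads and Cxcl1 at 14.0, 15.2, 43.1 and 147 in E(-)T(-), E(+)T(-), E(-)T(+) and E(+)T(+), with E(+)T(+) the highest library for both; the related Cxcl3 had 0 reads in both tumor-bearing libraries. The ligand genes Ccl12, Ccl24, Ccl6 and Ccl8 had log2 differences of -1.57, -1.49, -1.19 and -1.1, and Cxcl13, which draws B cells, fell from 376 to 129. In interleukin 1 and 6 signaling 2 of 32 rose, the feedback inhibitor gene Socs3 (687 to 1529) and Nfkbiz (46.7 to 111), and 5 fell, among them the alarmin gene Il33 (646 to 240) and the receptor antagonist gene Il1rn (46.6 to 6.66). Il6 had 0 reads in both libraries and Tnf 3 and 0.

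**Figure D5:**
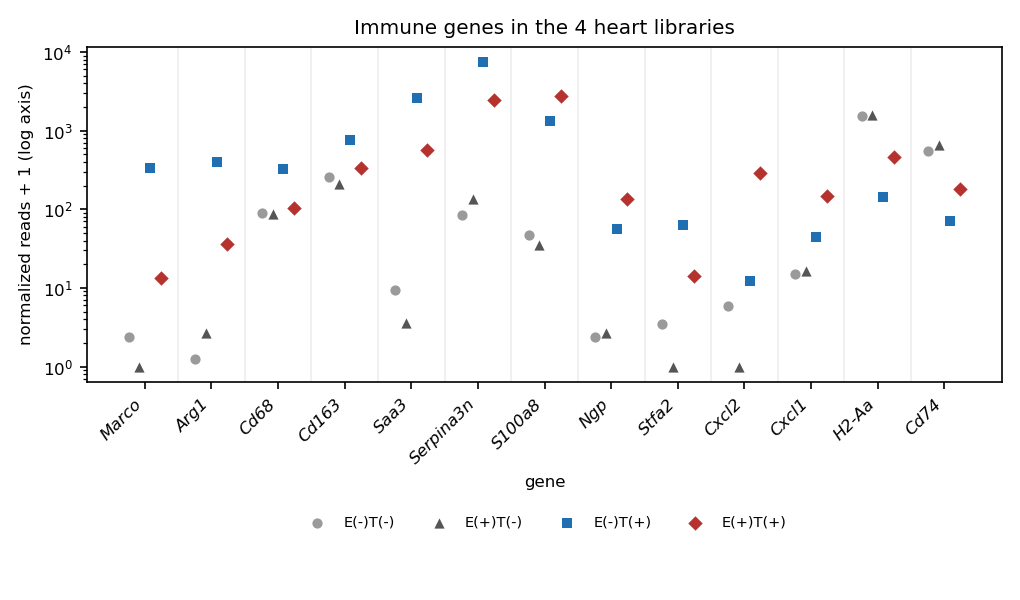
Points give the normalized reads plus 1, on a log axis, of 13 immune genes in the 4 heart libraries (1 point per library). Macrophage and acute phase genes from Marco to Serpina3n, and Stfa2, were highest in E(-)T(+), S100a8, Ngp, Cxcl2 and Cxcl1 were highest in E(+)T(+), and H2-Aa and Cd74 were lowest in E(-)T(+).

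The MHC class II genes, which present peptides to helper T cells, ran against the macrophage genes. H2-Aa stood at 1548, 1586, 142 and 463 normalized reads, H2-Eb1 at 875, 979, 80.9 and 230 and the invariant chain gene Cd74 at 553, 651, 69.4 and 182 in E(-)T(-), E(+)T(-), E(-)T(+) and E(+)T(+). The tumor-free hearts were the highest for these genes, and the exercised tumor-bearing heart was above the sedentary one. Of 12 kept members 6 rose and 1 fell, the fall being Ctss, the protease that trims the invariant chain (1643 to 648), which macrophages express widely. The class II transactivator gene Ciita had 0 reads in both libraries. With library totals as the scale the list's median changed sign, from 0.63 to -0.33, and 1 member rose.

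Interferon-stimulated genes moved in both directions, with 5 of 37 kept members higher, 3 lower and a median of -0.09. Rsad2, an antiviral enzyme, stood at 371, 283, 260 and 1961 normalized reads in E(-)T(-), E(+)T(-), E(-)T(+) and E(+)T(+). Isg15 and Irf7 rose by 1.28 and 1.0, while the RNA sensor gene Ddx58, Ifit2 and Irf8 fell by 1.33, 1.21 and 1.01 on the log2 scale. Among complement genes 6 of 25 fell, such as Cfi (43.0 to 9.91) and C2 (69.9 to 25.3), and 2 rose, 1 of them the adipocyte gene Cfd. Lymphocyte markers were scarce: 6 of 31 listed genes were kept, and Cd3d, Cd28 and Lck stood at 4.25, 6.90 and 4.32 and at 26.1, 29.4 and 17.3. These genes reached the minimum only in E(+)T(+), so the filter itself favours a rise among them. Of genes not kept, Cd3e had 10 and 5 reads, Cd4 10 and 7 and Cd8a 0 and 5 in E(-)T(+) and E(+)T(+).

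Endothelial genes were largely level, with 3 of 40 kept members higher, none lower and a median of 0.15. The Notch target gene Hey1 rose from 96.0 to 231 normalized reads and the adhesion gene Icam2 from 174 to 387. Of the angiogenic genes Vegfa stood at 963, 1284, 352 and 964 and the oxygen sensor gene Egln3 at 451, 740, 217 and 581 in E(-)T(-), E(+)T(-), E(-)T(+) and E(+)T(+), E(-)T(+) being the lowest library for both. Pgf, a related ligand, had a log2 difference of 1.0, and the ligand genes Figf and Vegfc and the tip cell gene Esm1 fell, with log2 differences of -1.80, -1.21 and -2.08. In smooth muscle cells and pericytes 2 of 20 fell, among them the receptor gene Pdgfrb (248 to 117).

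Of 20 kept coagulation and fibrinolysis genes 3 fell, the urokinase gene Plau (44.4 to 5.61 normalized reads), factor V, F5 (215 to 69.0, against 43.8 and 33.3 in the tumor-free hearts), and the protease inhibitor gene Serpine2 (2206 to 837), and 1 rose. Platelet genes moved apart: Ppbp rose from 136 to 308 and Pf4 stood at 2801 and 1754, a log2 difference of -0.68. None of the other 12 kept platelet genes reached 2-fold.

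Proliferation genes were higher in the exercised heart: of 52 kept members 14 rose and none fell, with a median of 0.48. E2f2, an S phase factor abundant in red cell precursors, stood at 63.4, 52.3, 115 and 957 normalized reads in E(-)T(-), E(+)T(-), E(-)T(+) and E(+)T(+). Mki67 stood at 41.5, 27.9, 81.9 and 396 and Ube2c, which drives exit from mitosis, at 32.3, 32.4, 46.6 and 208. Tk1, Nusap1 and Rrm2 rose by 1.45, 1.30 and 1.23. These rises stood in the same library as the nucleated red cell genes above, and that lineage's part in them was not tested. With library totals as the scale 4 members rose, 5 fell and the median was -0.10. Of 30 apoptosis genes 2 fell, Bid (36.5 to 3.42, counting interval of the log2 ratio -5.80 to -1.81) and Apaf1 (26.5 to 11.1), and the death receptor gene Tnfrsf10b rose from 23.7 to 77.5.

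Redox enzymes were near their neighbours in level, with 1 of 36 kept genes past 2-fold and a median of 0.18; Gclm, of the rate-limiting step of glutathione synthesis, had a log2 difference of 0.94 and Prdx2, the main red cell peroxiredoxin, of 0.61. Of 21 amino acid transporter genes 3 rose, including Slc7a5, a subunit of the large neutral amino acid carrier (31.7 to 78.4 normalized reads), and Slc38a2 fell from 2595 to 1116.

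Markers of neighbouring tissues were checked because a dissected heart can carry them. Of 10 kept lung epithelium markers 6 rose and 1 fell, and their summed level was 677, 199, 985 and 2104 normalized reads in E(-)T(-), E(+)T(-), E(-)T(+) and E(+)T(+). The club cell gene Scgb1a1 stood at 467, 97.5, 363 and 1228 and the surfactant gene Sftpc at 66.7, 34.2, 76.6 and 319, while Scgb3a1 fell from 381 to 138. Nkx2-1 had 0 reads in both libraries and Foxj1 0 and 1. Of 6 kept skeletal muscle markers Myl1 rose (111 to 353) and none fell, with 3 differences positive, 3 negative and a median of 0.10. Among those not kept, Mylpf had 17 and 4 reads and Tnnc2 15 and 4 in E(-)T(+) and E(+)T(+). Tnnt3 went the other way with 8 and 10 reads, as did Myh1 with 1 and 4, and Myod1 had 0 reads. Of 8 kept hepatocyte markers Alb and Ttr rose, to 117 and 29.1, and Ahsg had a log2 difference of -0.94. The part of lung or other tissue in the results was not tested.

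Other marker lists were lower or level, except that of mast cells and eosinophils, which had a median of 0.68. Of 11 kept mesothelium and epicardium markers 4 fell, including Aldh1a2, the retinoic acid enzyme of the epicardium (79.6 to 5.63 normalized reads), Msln (149 to 60.2) and Tbx18, while Wt1 had a log2 difference of 0.17. The neurofilament genes Nefl and Nefm fell from 20 and 32.2 to 1.18 and 5.57, Nefl with a counting interval of -9.52 to -1.52 on the log2 scale, and the other 7 kept nerve markers lay under 2-fold. Of 5 kept epithelial carcinoma keratins Krt20 fell from 69.5 to 23, and Cdx2 had 0 reads in both libraries. Of 5 mast cell and eosinophil genes the proteases Mcpt4 and Cma1 rose, from 2.49 and 18.4 to 17.4 and 40.4. Mcpt4 had a counting interval of 0.92 to 5.15 on the log2 scale and reached the minimum only in E(+)T(+). The proteases Cpa3 and Tpsb2 had log2 differences of -0.70 and -0.14, and Hdc of 0.68. The receptor gene Fcer1a, not kept, had 12 reads in E(-)T(+) and 0 in E(+)T(+).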

How the data were processed

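Heart RNA of 4 male CDF1 mouse groups, 1 library each, was made into Lexogen QuantSeq 3′ tag libraries. Per the labels and the study's methods, the authors aligned the reads with Bowtie2 to mm10, counted them with bedtools and quantile normalized the counts in edgeR; versions are not given in the sources used here. The deposited values are log2 (normalized read count + 1), 1 file per sample. From them the whole read counts were recovered by inverting the quantile adjustment (Python 3.11.15, numpy 2.4.6, scipy 1.17.1; common dispersion 0.149): all 25460 values of 5 to 99 reads came within 0.1 of a whole number. Differences were taken on the deposited log2 scale, which understates the change of low genes through the pseudocount of 1; the read ratios gave 95% Clopper-Pearson intervals, which cover counting error only, and 3 reads stood for a count of 0. The procedure was tested on simulated data.

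The comparison, its members and the 69 gene lists were chosen with earlier results of these data known. Named genes were the 15 largest rises and 15 largest falls among genes reaching 100 normalized reads, up to 6 kept members per list with the largest differences, and leading markers of lists at or near 0; the other named genes were chosen after their values were seen. Where a symbol occurred more than once (35 symbols), the row of highest mean stood for it. Each group having 1 library, no test was run. Alternatives varied the scaling, depth, pseudocount, minimum and call rule. Promoter sequences came from RefSeq, build GRCm38.p6. Some genes are not reported here.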

Additional observations from a re-analysis of the deposited data

Results flagged for a closer look

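Among the 30 genes with the largest differences, and counting only those that reached 16 normalized reads in 1 of the 2 tumor-free libraries as well, 3 genes were found for which exercise went at least 2-fold in opposite directions in tumor-free and tumor-bearing hearts, with 1 library per group, and this difference between the pairs was not tested. Apol11b, an apolipoprotein L family gene, had a log2 difference of exercised minus sedentary of -1.03 in tumor-free hearts and 6.12 in tumor-bearing hearts. Cidec, a lipid droplet gene of fat cells, had -1.59 and 3.65. Col1a1, of fibrillar collagen, had 1.04 and -3.09.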

How the results depend on the processing

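The 778 rises and 849 falls became 260 and 2897 when reads were scaled to the library totals, in which globins take a larger share of E(+)T(+). The counts became 1349 and 1440 with a minimum of 4 normalized reads, 273 and 282 with a minimum of 100, and 2026 and 1965 with none, where 14363, 7372 and 17174 genes were kept. Scaling to the reads outside the globins gave 734 and 906, median-of-ratios size factors 786 and 815, the thinned deeper library 749 and 842, a pseudocount of 5 gave 649 and 680, and requiring the counting interval as well gave 763 and 823. Scaled to library totals, the medians of 24 lists changed sign, among them MHC class II presentation (-0.33), cell cycle and DNA replication (-0.10) and mast cell and eosinophil markers (-0.31), and 57 of 394 named genes no longer reached 2-fold while 54 others did; none that had reached 2-fold changed sign under the 5 alternatives of scaling, depth and pseudocount. With a minimum of 100 the mesothelium and epicardium median was 0.07, over 3 kept genes. No paired analysis was possible because each group has 1 library, and no library could be left out.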

Other observations

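Outside the 69 lists, 617 further genes rose and 698 fell, and the genes named here were chosen after their values were seen. Among them are 3 host genes of small nucleolar RNAs that fell, with no list of such hosts behind them: Snhg5 stood at 54.1, 63.2, 363 and 120 normalized reads, Snhg3 at 105, 129, 604 and 204 and Snhg8 at 360, 354, 1177 and 507 in E(-)T(-), E(+)T(-), E(-)T(+) and E(+)T(+). The elongation factor gene Eef1a1, under 2-fold, stood at 3719, 3592, 7480 and 4519, a log2 difference of -0.73. In these 4 genes E(-)T(+) was the highest library.

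Amd1, an enzyme gene of polyamine synthesis, rose from 321 to 867 normalized reads, Mat2a, which makes the methyl donor S-adenosylmethionine, from 559 to 1182, and Smox, which oxidizes spermine, from 230 to 481. Oxct1, the enzyme that lets the heart burn ketone bodies, stood at 12943, 14252, 7200 and 15553 in E(-)T(-), E(+)T(-), E(-)T(+) and E(+)T(+), and Fndc5, the precursor gene of the myokine irisin, at 3095, 3673, 1774 and 4234. Mgll, a monoglyceride lipase gene, rose from 1094 to 2946. For Amd1, Mat2a, Oxct1, Fndc5 and Mgll the sedentary tumor-bearing heart was the lowest library.

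The calcium-binding protein genes S100a4 and S100a6 fell from 4826 to 1074 and from 7013 to 2869 normalized reads, and Apod, a lipocalin gene, from 6199 to 2203, against 267 and 272 in the tumor-free hearts. Frzb, a secreted Wnt antagonist gene, fell from 634 to 151. Cpxm2, a carboxypeptidase family gene, stood at 770, 775, 162 and 622 in E(-)T(-), E(+)T(-), E(-)T(+) and E(+)T(+).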
